A study of Rattus norvegicus with 6 samples.

Results

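A set of 9 genes of the adrenergic, angiotensin and endothelin pathways were followed in cultured heart muscle cells of newborn rats. They are 3 adrenergic receptor genes (Adra1a, Adra1b and Adrb1), 2 adenylyl cyclase genes (Adcy5 and Adcy6), the angiotensin receptor gene Agtr1a, the ligand gene Edn1 and its receptor genes Ednra and Ednrb. They were taken by gene name from a deposited table of 34510 genes, where each had 1 entry. All 9 reached at least 0.5 FPKM (fragments scaled by gene length and library size) in at least 3 libraries, the level required for testing, as did 14808 genes in all.

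Poly(A) RNA was sequenced from neonatal rat ventricular cardiomyocytes in 3 libraries of a group titled Trim28 and 3 of a group titled Bgal. The series describes infection with an adenovirus carrying TRIM28, a corepressor of transcription, and asks about its role in ferroptosis. The labels give no virus for the Bgal cells and do not spell out that name. They also give no promoter for the transgene, no viral dose, no time after infection and no count of animals, and they do not say whether libraries came from separate cultures. The p-values therefore measure the spread between these libraries, which may be technical.

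Noradrenaline and adrenaline act on cardiomyocytes through beta receptors, which couple to Gs, activate adenylyl cyclase and raise cyclic AMP, and through alpha-1 receptors, which couple to Gq and phospholipase C. The angiotensin AT1 receptor and the endothelin receptors also signal through Gq. In cultured neonatal cardiomyocytes, agonists of these Gq-coupled receptors are classical inducers of hypertrophic growth, while beta receptors control rate and force of contraction.

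Reads assigned to genes ranged from 26146166 to 28298731 in the Trim28 libraries and from 28574951 to 34593292 in the Bgal libraries. Trim28 itself was listed at 2923, 2890 and 980 FPKM in Trim28 replicates 1, 2 and 3, against 77.6 to 87.8 FPKM in the Bgal libraries. Cardiomyocyte markers were abundant in both groups, with Myh6, the alpha myosin heavy chain gene, at 3194 ± 37.3 FPKM in Trim28 libraries and 3385 ± 93.1 FPKM in Bgal libraries (SD, n = 3 each). Other markers moved more, and at a limma adjusted p below 0.05, 3 of the 8 tested rose and 3 fell. Myh7 rose to 752 ± 25.8 FPKM in Trim28 libraries, against 341 ± 56.3 FPKM in Bgal libraries. Tnni3 fell to 788 ± 51.8 FPKM in Trim28 libraries, against 1299 ± 76.0 FPKM in Bgal libraries.

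Among the 9 genes, 4 rose in the Trim28 libraries (Adra1a, Adcy6, Agtr1a and Ednrb), 1 fell (Adra1b) and 4 did not pass (Adrb1, Adcy5, Edn1 and Ednra), by limma with an adjusted p below 0.05. Over all tested genes 41.2% passed, 20.1% upwards and 21.1% downwards, so 5 calls among 9 genes lie near what the table shows in general. Over the same genes the log2 change had a median of -0.02. The groups did not overlap for 6 of the 9 genes, against 53.8% of all tested genes. Log2 changes and their intervals are on the scale of log2(FPKM + 1), which understates changes of low genes, while folds are ratios of mean FPKM.

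**Figure D1:**
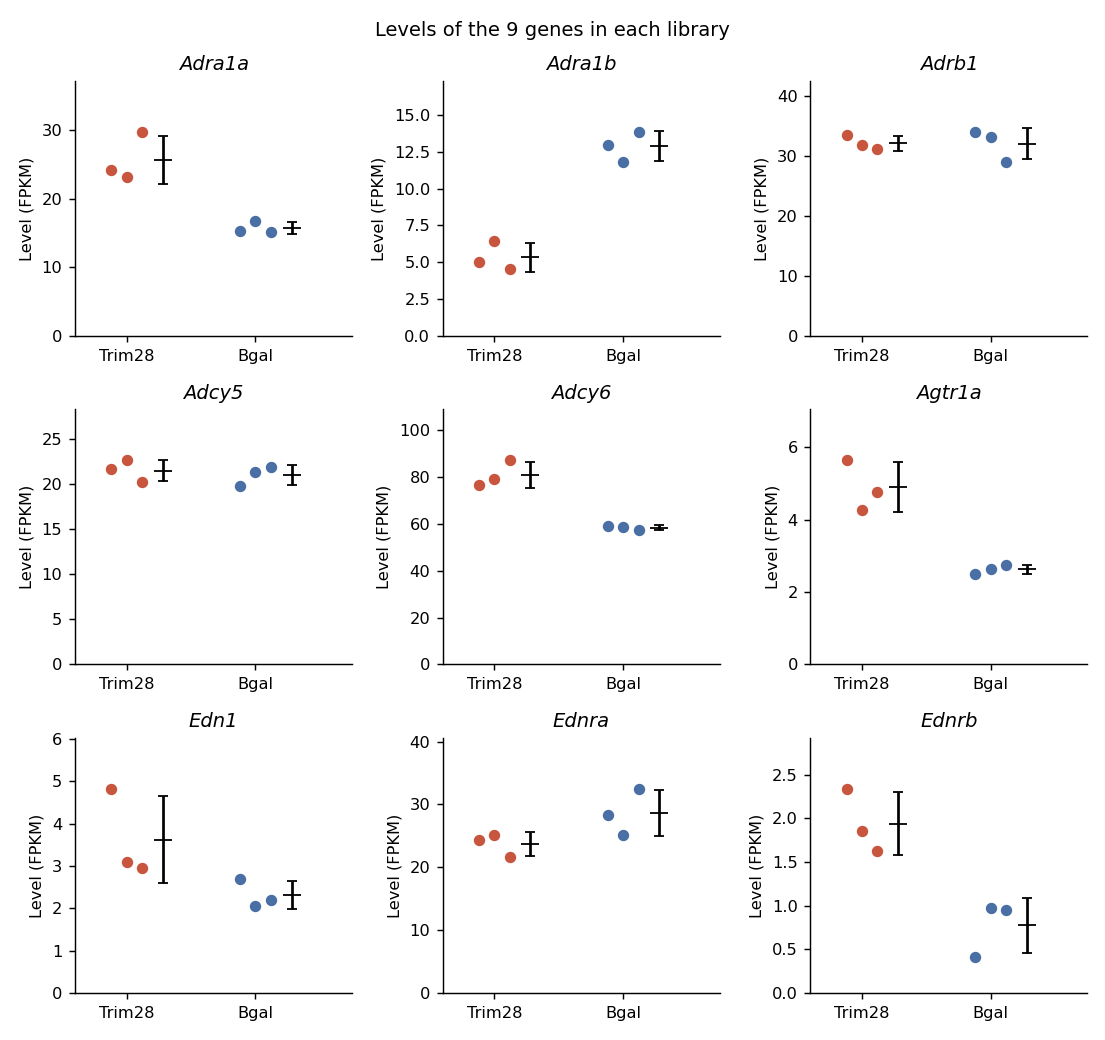
Level in FPKM (vertical axes, from 0) of each of the 9 genes in the 3 Trim28 libraries (left, replicates 1 to 3) and the 3 Bgal libraries (right), with the mean and SD beside the points. The groups are apart for Adra1a, Adra1b, Adcy6, Agtr1a, Edn1 and Ednrb and overlap for Adrb1, Adcy5 and Ednra.

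The alpha-1 receptor genes moved in opposite directions. Adra1a encodes the alpha-1A receptor (ENSRNOG00000009522, chromosome 15, 43298794 to 43392451, plus strand). It was at 24.2, 23.1 and 29.8 FPKM in Trim28 replicates 1 to 3, against 15.4, 16.8 and 15.2 FPKM in Bgal replicates 1 to 3. Every Trim28 library was above every Bgal library, and Trim28 replicate 3 stood highest. The mean was 25.7 ± 3.56 FPKM in Trim28 libraries and 15.8 ± 0.860 FPKM in Bgal libraries (SD, n = 3 each), a 1.63-fold rise. On the log2 scale the rise was 0.66 (SE 0.10, 95% confidence interval 0.44 to 0.89, limma adjusted p = 0.00165). Gene coordinates here and below are the deposited table's own, and its genome build is not given.

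Adra1b encodes the alpha-1B receptor (ENSRNOG00000060087, chromosome 10, 29392762 to 29450644, minus strand), also a Gq-coupled receptor. It was at 5.05, 6.42 and 4.56 FPKM in Trim28 replicates 1 to 3, against 12.9, 11.8 and 13.8 FPKM in Bgal replicates 1 to 3. The highest Trim28 library lay well below the lowest Bgal library. Adra1b averaged 5.34 ± 0.967 FPKM in Trim28 libraries and 12.9 ± 1.02 FPKM in Bgal libraries (SD, n = 3 each), 2.41-fold lower in Trim28 libraries. Its log2 change of -1.14 (SE 0.12, 95% confidence interval -1.41 to -0.86, limma adjusted p = 0.000421) was larger in size than that of 98.1% of all tested genes. It was the largest of the 9 on this scale, but with a pseudocount of 0.1 FPKM the change of Ednrb was larger, at 1.28 against -1.26 for Adra1b, as it was in limma-voom on recovered reads, at 1.41 against -1.30.

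The third gene of this receptor subfamily, Adra1d, stood outside the 9 genes and rose as well. It averaged 26.8 ± 2.40 FPKM in Trim28 libraries and 13.8 ± 1.70 FPKM in Bgal libraries (SD, n = 3 each), a 1.93-fold rise (log2 change 0.91, limma adjusted p = 0.000549). The FPKM of the 3 alpha-1 genes were therefore summed per library, a measure chosen after their values were seen. The sum was 57.2, 57.9 and 58.3 FPKM in Trim28 replicates 1 to 3, against 43.8, 42.6 and 41.1 FPKM in Bgal replicates 1 to 3. Adra1b made up 9.24% ± 1.68 of that sum in Trim28 libraries and 30.3% ± 3.05 in Bgal libraries (SD, n = 3 each). Adra1d made up 46.4% ± 4.48 in Trim28 libraries and 32.5% ± 3.01 in Bgal libraries. The share of Adra1a was 44.4% ± 5.83 in Trim28 libraries and 37.2% ± 2.12 in Bgal libraries. The alpha-1 transcripts of the Bgal libraries were thus divided rather evenly among 3 genes, while those of the Trim28 libraries came mostly from Adra1a and Adra1d.

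**Figure D2:**
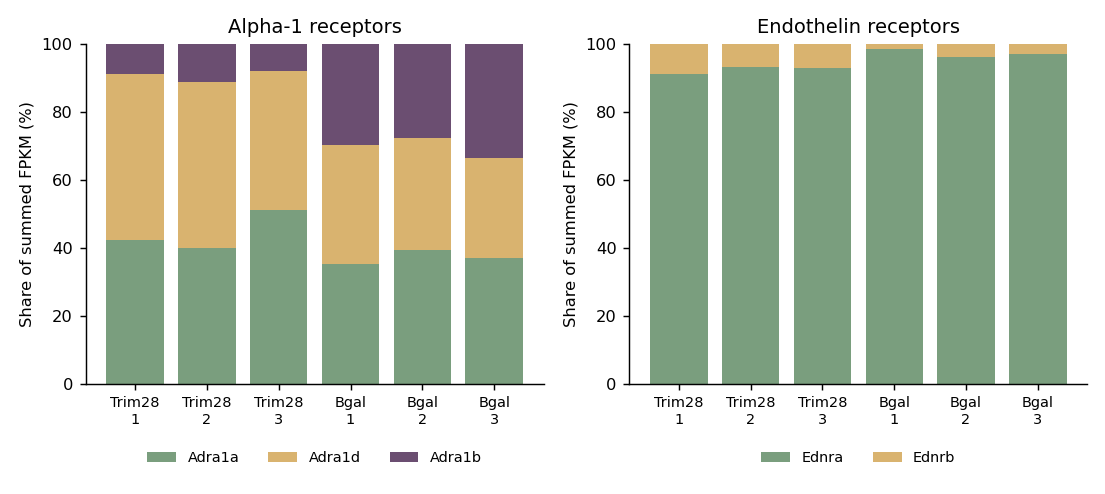
Share of summed FPKM (vertical axis, percent) that each receptor gene contributed in the 3 Trim28 libraries and the 3 Bgal libraries, for the alpha-1 receptors (left panel) and the endothelin receptors (right panel). Adra1b is the smallest alpha-1 segment in every Trim28 library, at 7.81% to 11.1%, against 27.7% to 33.7% in the Bgal libraries, and the Ednrb segment is larger in every Trim28 library than in any Bgal library.

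Adrb1, which encodes the beta-1 receptor, the main cardiac beta receptor (ENSRNOG00000017002, chromosome 1, 277537585 to 277538985, plus strand), did not pass. It was at 33.6, 31.8 and 31.1 FPKM in Trim28 replicates 1 to 3, against 34.1, 33.2 and 29.1 FPKM in Bgal replicates 1 to 3. The ranges overlapped, and the means of 32.2 ± 1.26 FPKM in Trim28 libraries and 32.1 ± 2.63 FPKM in Bgal libraries (SD, n = 3 each) were close. The 95% confidence interval of its log2 difference ran from -0.15 to 0.16 (limma adjusted p = 0.955). Adrb1 had the highest level per kilobase of the 3 adrenergic receptor members in every library. In the Bgal libraries Adra1a and Adra1b followed in that order, and in Trim28 libraries the gap between these 2 widened.

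Among the adrenergic receptors outside the members, 3 of 6 were tested, of which 2 rose and 0 fell. Besides Adra1d this was Adra2a, the gene of a receptor that couples to Gi and lowers cyclic AMP, at 2.62 ± 0.162 FPKM in Trim28 libraries and 0.854 ± 0.0923 FPKM in Bgal libraries (SD, n = 3 each, limma adjusted p = 0.000416). Adra2b, Adra2c and Adrb3 stayed at or below 0.0754 FPKM in every library and were not tested.

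Adcy6 and Adcy5 encode the main adenylyl cyclases of the heart, the enzymes that make cyclic AMP on activation by Gs. Adcy6 (ENSRNOG00000054757, chromosome 7, 140270692 to 140291620, minus strand) was at 76.7, 79.0 and 87.1 FPKM in Trim28 replicates 1 to 3, against 59.0, 58.9 and 57.2 FPKM in Bgal replicates 1 to 3. Its groups were apart, with the Bgal libraries close together and Trim28 replicate 3 highest. The mean was 80.9 ± 5.45 FPKM in Trim28 libraries and 58.4 ± 0.975 FPKM in Bgal libraries (SD, n = 3 each), a 1.39-fold rise (log2 change 0.46, SE 0.05, 95% confidence interval 0.34 to 0.59, limma adjusted p = 0.000705). Adcy6 was the most abundant of the 9 genes per kilobase in all 6 libraries.

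Adcy5 (ENSRNOG00000002229, chromosome 11, 68695839 to 68842320, minus strand) was at 21.7, 22.7 and 20.3 FPKM in Trim28 replicates 1 to 3, against 19.8, 21.4 and 22.0 FPKM in Bgal replicates 1 to 3. The groups overlapped, with means of 21.5 ± 1.20 FPKM in Trim28 libraries and 21.1 ± 1.11 FPKM in Bgal libraries (SD, n = 3 each). The log2 difference was 0.03 (95% confidence interval -0.12 to 0.18, limma adjusted p = 0.72). Of 8 other adenylyl cyclase genes 6 were tested, and 4 rose and 0 fell, with a median log2 change of 0.38. Adcy7 was at 5.28 ± 0.440 FPKM in Trim28 libraries and 3.25 ± 0.437 FPKM in Bgal libraries, Adcy4 rose 1.70-fold, Adcy2 1.83-fold and Adcy3 1.46-fold (limma adjusted p = 0.00447, 0.00505, 0.0161 and 0.0411). Of the summed FPKM of the 8 tested cyclase genes, Adcy6 made up 67.3% ± 1.62 in Trim28 libraries and 63.6% ± 1.06 in Bgal libraries (SD, n = 3 each).

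The receptor for angiotensin II and the endothelin genes were expressed at lower levels, apart from Ednra. The RefSeq sequences before the transcription starts of Agtr1a, Ednrb and Edn1 are shown because these genes of peptide hormone signalling had higher values in every Trim28 library than in any Bgal library. Each is the 250 bases before the start on the minus strand of build GRCr8, at chr17:34435433-34435682 for Agtr1a, chr15:87086766-87087015 for Ednrb and chr17:22666688-22666937 for Edn1. RefSeq promoters were found for 7 of the 9 genes. Capitals mark matches on either strand to TATAAA, the core promoter box, and to AGATAA, a motif of GATA family factors. They also mark matches on either strand to TGACG and to GGGCGG, a motif of Sp1. TGACG is a part of the cyclic AMP response element, not the whole of it.
Agtr1a: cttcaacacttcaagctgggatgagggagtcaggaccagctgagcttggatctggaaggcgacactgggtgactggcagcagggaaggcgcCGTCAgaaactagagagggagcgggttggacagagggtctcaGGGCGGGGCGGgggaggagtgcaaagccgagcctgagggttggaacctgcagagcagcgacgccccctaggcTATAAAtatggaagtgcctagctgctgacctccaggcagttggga
Ednrb: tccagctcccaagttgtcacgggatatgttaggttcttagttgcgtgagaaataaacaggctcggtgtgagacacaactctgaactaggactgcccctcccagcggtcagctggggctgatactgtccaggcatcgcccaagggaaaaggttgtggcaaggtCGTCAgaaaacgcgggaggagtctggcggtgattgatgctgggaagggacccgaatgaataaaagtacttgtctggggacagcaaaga
Edn1: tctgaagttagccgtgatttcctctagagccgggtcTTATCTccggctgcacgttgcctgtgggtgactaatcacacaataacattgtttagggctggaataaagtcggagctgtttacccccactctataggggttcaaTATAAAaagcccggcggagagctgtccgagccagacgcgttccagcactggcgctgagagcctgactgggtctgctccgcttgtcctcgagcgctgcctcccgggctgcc

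In these windows Agtr1a holds TATAAA starting 45 bases before the start, 2 GGGCGG matches that overlap by their end bases, and the reverse complement of TGACG at 159 bases. Edn1 holds TATAAA at 110 bases and the reverse complement of AGATAA at 214 bases before the start. Ednrb holds the reverse complement of TGACG at 88 bases. Across 33469 promoters of the same length, 12.9% held TATAAA, 10.3% AGATAA, 18.2% TGACG and 30.5% GGGCGG. The AP-1 motif TGANTCA and the TEAD factor motif CATTCC, held by 6.34% and 12.1% of those promoters, had no match in any of the 7 windows. These matches describe letters in the sequence and are not measured binding sites.

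Agtr1a encodes the AT1a receptor (ENSRNOG00000018346, chromosome 17, 35907108 to 35958077, minus strand), which is the predominant AT1 form in rodent heart. It was at 5.63, 4.26 and 4.77 FPKM in Trim28 replicates 1 to 3, against 2.49, 2.63 and 2.75 FPKM in Bgal replicates 1 to 3. All Trim28 libraries were above all Bgal libraries. The mean was 4.89 ± 0.692 FPKM in Trim28 libraries and 2.62 ± 0.131 FPKM in Bgal libraries (SD, n = 3 each), a 1.86-fold rise (log2 change 0.70, SE 0.11, 95% confidence interval 0.45 to 0.94, limma adjusted p = 0.00202). These values rest on 244 to 343 reads per Trim28 library and 167 to 206 per Bgal library. The close paralog Agtr1b was listed at 0 in every library except Trim28 replicate 3, at 0.0320 FPKM, and how reads shared by both genes were assigned is not given.

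Of 12 other angiotensin system genes 8 were tested. Mas1 reached the level for testing through the Trim28 libraries alone and is left out of the count, and of the other 7 genes 3 rose and 1 fell, with a median log2 change of 0.10. Ace, the gene of the converting enzyme that makes angiotensin II, rose to 5.00 ± 0.416 FPKM in Trim28 libraries, against 3.55 ± 0.160 FPKM in Bgal libraries (SD, n = 3 each, limma adjusted p = 0.00877). Enpep, an aminopeptidase that degrades angiotensin II, rose 1.41-fold (limma adjusted p = 0.0233). Mas1, a receptor for angiotensin 1-7, was at 0.851 ± 0.0795 FPKM in Trim28 libraries and 0.217 ± 0.0141 FPKM in Bgal libraries, and the direction of its difference was fixed by that level. The lysosomal protease gene Ctsd fell to 290.5 ± 8.44 FPKM in Trim28 libraries, against 349 ± 8.08 FPKM in Bgal libraries (limma adjusted p = 0.00253). The precursor gene Agt was at 0.688 ± 0.0919 FPKM in Trim28 libraries and 0.805 ± 0.304 FPKM in Bgal libraries and did not pass (limma adjusted p = 0.683), chosen here after its values were seen.

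Edn1 encodes the precursor of endothelin-1, a peptide that constricts vessels and acts on cardiomyocytes (ENSRNOG00000014361, chromosome 17, 22137324 to 22143324, minus strand). It was at 4.82, 3.10 and 2.96 FPKM in Trim28 replicates 1 to 3, against 2.69, 2.06 and 2.20 FPKM in Bgal replicates 1 to 3. The groups did not overlap, but Trim28 replicate 1 stood far above the other Trim28 libraries. Edn1 averaged 3.63 ± 1.04 FPKM in Trim28 libraries and 2.31 ± 0.333 FPKM in Bgal libraries (SD, n = 3 each), a ratio of 1.57. Its log2 difference of 0.46 did not pass (SE 0.16, 95% confidence interval 0.08 to 0.85, limma adjusted p = 0.0572). Without Trim28 replicate 1 the log2 difference was 0.29, and the adjusted p over the 15 alternatives ranged from 0.0257 to 0.148.

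Ednra, the gene of the ETA receptor, which predominates on cardiomyocytes and smooth muscle (ENSRNOG00000012721, chromosome 19, 33928356 to 33991703, plus strand), was the most abundant endothelin gene. It was at 24.3, 25.2 and 21.6 FPKM in Trim28 replicates 1 to 3, against 28.4, 25.1 and 32.5 FPKM in Bgal replicates 1 to 3. The ranges touched, since Trim28 replicate 2 lay just above Bgal replicate 2. The means were 23.7 ± 1.87 FPKM in Trim28 libraries and 28.7 ± 3.66 FPKM in Bgal libraries (SD, n = 3 each), and the log2 difference of -0.26 did not pass (SE 0.10, 95% confidence interval -0.49 to -0.03, limma adjusted p = 0.0695). Over the 15 alternatives its adjusted p ranged from 0.0181 to 0.179.

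Ednrb encodes the ETB receptor (ENSRNOG00000010997, chromosome 15, 88006977 to 88036354, minus strand), which clears endothelin and in vessels is found mainly on endothelium. It was at 2.34, 1.85 and 1.63 FPKM in Trim28 replicates 1 to 3, against 0.409, 0.967 and 0.949 FPKM in Bgal replicates 1 to 3. All Trim28 libraries were higher than all Bgal libraries, and Bgal replicate 1 was the lowest. The mean was 1.94 ± 0.363 FPKM in Trim28 libraries and 0.775 ± 0.317 FPKM in Bgal libraries (SD, n = 3 each), 2.50-fold higher, and 2.02-fold higher without Bgal replicate 1. On the log2 scale the rise was 0.74 (SE 0.17, 95% confidence interval 0.35 to 1.13, limma adjusted p = 0.0109). Read counts were low, at 130, 97 and 93 in Trim28 replicates 1 to 3 and 29, 56 and 65 in Bgal replicates 1 to 3. Ednrb nevertheless contributed only 7.55% ± 1.06 of the summed FPKM of both endothelin receptors in Trim28 libraries and 2.65% ± 1.15 in Bgal libraries.

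**Figure D3:**
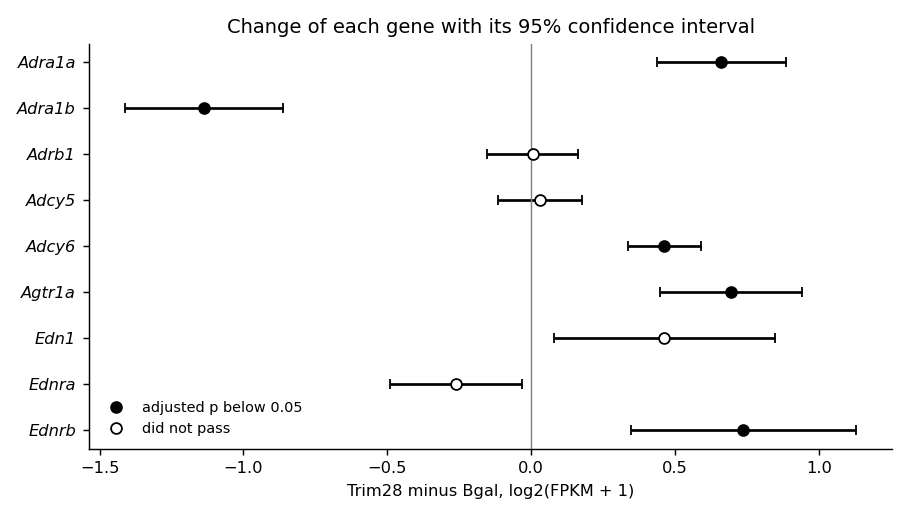
Log2 change of each gene, Trim28 minus Bgal on the log2(FPKM + 1) scale (horizontal axis), with its 95% confidence interval from limma over 3 libraries per group. Filled points passed an adjusted p of 0.05 and open points did not. Adra1b is the only filled point left of 0, at -1.14, and the intervals of Adrb1 and Adcy5 lie within 0.18 of 0.

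Of 5 other endothelin system genes 2 were tested. Mme, the gene of neprilysin, a protease that degrades endothelin and natriuretic peptides, rose to 12.1 ± 0.129 FPKM in Trim28 libraries, against 4.43 ± 0.984 FPKM in Bgal libraries (SD, n = 3 each, limma adjusted p = 0.00031). Ece1, the gene of the enzyme that releases endothelin-1 from its precursor, was at 11.0 ± 1.40 FPKM in Trim28 libraries and 9.77 ± 0.453 FPKM in Bgal libraries and did not pass (limma adjusted p = 0.208). Edn2 and Edn3, the genes of the other endothelins, were at or below 0.106 FPKM in every library.

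Levels of related genes were also compared as ratios within each library, which do not depend on library scaling. Adra1a over Adra1b was 4.79, 3.60 and 6.53 in Trim28 replicates 1 to 3, against 1.19, 1.42 and 1.10 in Bgal replicates 1 to 3. Ednra over Ednrb was 10.4, 13.6 and 13.3 in Trim28 replicates 1 to 3, against 69.4, 26.0 and 34.2 in Bgal replicates 1 to 3. Adcy5 over Adcy6 was 0.283, 0.287 and 0.233 in Trim28 replicates 1 to 3, against 0.336, 0.363 and 0.384 in Bgal replicates 1 to 3. The log2 ratio of Adrb1 to Adra1b differed by 1.29, Trim28 minus Bgal. For each of these 4 ratios the groups did not overlap, and the two-sided exact permutation test gave p = 0.1. This is the smallest value that 3 against 3 libraries allow, and it was 0.1 after Benjamini-Hochberg adjustment over the 5 ratios computed. For Adra1a over Adra1b this result was fixed beforehand, since each gene already separated the groups, in opposite directions. The ratios restate the levels of the single genes above and are no separate evidence.

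Markers of other cell types moved in the same libraries. The 8 fibroblast markers summed to 773 to 837 FPKM in Trim28 libraries and 434 to 453 FPKM in Bgal libraries, and 7 of them rose, such as Pdgfra at 28.8 ± 1.69 FPKM in Trim28 libraries and 10.4 ± 0.144 FPKM in Bgal libraries. The 10 smooth muscle and mural markers summed to 1645 to 1744 FPKM in Trim28 libraries and 808 to 1058 FPKM in Bgal libraries. Most of both sums came from Acta2, at 1342 ± 52.1 FPKM in Trim28 libraries and 692 ± 111 FPKM in Bgal libraries. By limma 7 were higher and 1 lower of 9 tested genes, leaving out Kcnj8, which reached the level for testing through the Trim28 libraries alone. The lower gene was Abcc9, at 21.5 ± 0.469 FPKM in Trim28 libraries and 42.5 ± 3.31 FPKM in Bgal libraries (limma adjusted p = 9.42e-05). Of the leukocyte and macrophage markers, 5 that reached the level for testing in both groups rose, Adgre1 reached it in the Trim28 libraries alone, and C1qa and C1qb were not tested. These 8 summed to 64.3 to 65.8 FPKM in Trim28 libraries and 27.2 to 27.5 FPKM in Bgal libraries. The 4 epicardial and mesothelial markers summed to 9.58 to 11.1 FPKM in Trim28 libraries and 7.78 to 8.41 FPKM in Bgal libraries, with 3 higher and 1 lower.

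The 10 endothelial markers found summed to 14.7 to 15.4 FPKM in Trim28 libraries and 13.8 to 14.5 FPKM in Bgal libraries, with 2 higher and 1 lower of 4 tested. Flt1, a receptor for vascular endothelial growth factor, rose to 2.48 ± 0.264 FPKM in Trim28 libraries, against 0.888 ± 0.177 FPKM in Bgal libraries (SD, n = 3 each, limma adjusted p = 0.0011). Tek, the gene of an angiopoietin receptor, rose 1.73-fold (limma adjusted p = 0.0132). Kdr, another receptor for vascular endothelial growth factor, fell to 6.06 ± 0.276 FPKM in Trim28 libraries, against 8.07 ± 0.642 FPKM in Bgal libraries (limma adjusted p = 0.00934). Cldn5 was listed at 0 in all libraries and Cdh5 was at no more than 0.454 FPKM in Trim28 libraries and 0.573 FPKM in Bgal libraries. Schwann cell markers, counted because glia can carry Ednrb, summed to 2.03 to 2.58 FPKM in Trim28 libraries and 1.67 to 3.07 FPKM in Bgal libraries, and neither of the 2 tested passed. The cardiomyocyte markers summed to 10624 to 10770 FPKM in Trim28 libraries and 11411 to 12203 FPKM in Bgal libraries, with 3 higher and 3 lower of 8. Fibroblasts, mural or endothelial cells can also express Agtr1a, Edn1, Ednra, Ednrb, Adra1d and Mme. Of these genes Agtr1a, Ednrb, Adra1d and Mme rose. Edn1, with a higher mean in Trim28 libraries, and Ednra, with a lower mean there, did not pass. The part of fibroblasts, mural or endothelial cells in the values of these genes was not tested. In such bulk samples fewer cells of a type and less RNA per cell cannot be told apart.

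**Figure D4:**
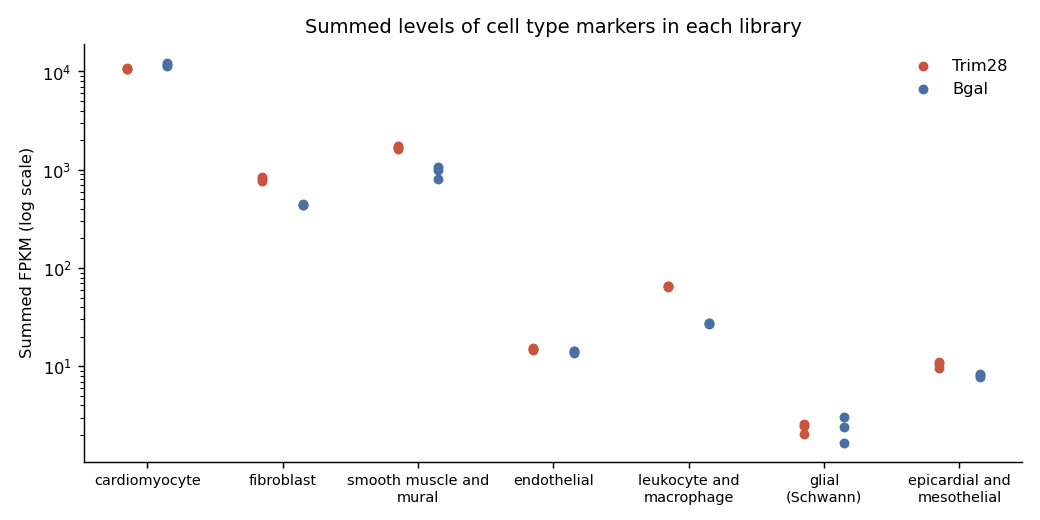
Summed FPKM (log scale) of the marker genes of 7 cell types in each Trim28 library (left of each pair) and each Bgal library (right). Fibroblast, mural, leukocyte, epicardial and, by a small margin, endothelial sums are higher in every Trim28 library than in any Bgal library. Cardiomyocyte sums are lower in every Trim28 library, and the Schwann cell sums overlap.

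Downstream of the receptors, the lists of pathway genes outside the members held 101 symbols, with 80 entries tested. Of these, 32 (40%) rose, Mas1 among them, 11 (13.8%) fell and 37 did not pass, against 20.1% higher and 21.1% lower over all tested genes. The phosphodiesterases, which break down cyclic nucleotides, were the list with the largest share of calls, as 5 of 7 rose and 1 fell, with a median log2 change of 0.44, against -0.02 over all tested genes. Pde3a, a major cyclic AMP phosphodiesterase of cardiomyocytes, rose to 50.5 ± 0.340 FPKM in Trim28 libraries, against 20.9 ± 0.790 FPKM in Bgal libraries (SD, n = 3 each, limma adjusted p = 1.42e-05). Pde4b rose 1.57-fold, Pde2a 1.54-fold and Pde3b 1.60-fold (limma adjusted p = 0.00224, 0.00259 and 0.00872).

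The effectors of cyclic AMP moved both ways, with 3 of 16 higher, 4 lower and a median log2 change of 0.01. Akap1, which anchors protein kinase A at mitochondria, fell to 76.9 ± 1.73 FPKM in Trim28 libraries, against 159.3 ± 7.39 FPKM in Bgal libraries (SD, n = 3 each, limma adjusted p = 2.48e-05). Prkaca, a catalytic subunit of protein kinase A, fell to 127 ± 3.09 FPKM in Trim28 libraries, against 180.3 ± 9.06 FPKM in Bgal libraries (limma adjusted p = 0.000311). Pkia, an inhibitor of the same kinase, fell to 142 ± 9.76 FPKM in Trim28 libraries, against 192 ± 13.8 FPKM in Bgal libraries, while Akap13 rose 1.30-fold (limma adjusted p = 0.00253 and 0.000416). The transcription factor gene Creb1, chosen after its values were seen, was at 12.6 ± 0.538 FPKM in Trim28 libraries and 12.6 ± 0.569 FPKM in Bgal libraries.

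On the receptor-proximal side, 3 of 9 receptor kinase, arrestin and RGS genes rose and 1 fell, with a median log2 change of 0.03. Rgs2, which shortens Gq signalling, rose to 116 ± 25.1 FPKM in Trim28 libraries, against 47.5 ± 3.29 FPKM in Bgal libraries (SD, n = 3 each, limma adjusted p = 0.000774). Rgs4 rose 1.67-fold and Rgs3 1.31-fold, and the receptor kinase gene Grk5 fell to 18.4 ± 0.818 FPKM in Trim28 libraries, against 20.7 ± 0.670 FPKM in Bgal libraries (limma adjusted p = 0.00741, 0.0468 and 0.0447). Grk2, the principal kinase that desensitises beta receptors, was at 26.2 ± 1.61 FPKM in Trim28 libraries and 28.1 ± 2.76 FPKM in Bgal libraries, did not pass (limma adjusted p = 0.38), and was chosen after its values were seen.

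Among 13 tested entries of G protein subunits, 2 of them named Gnas, 6 rose and 1 fell, with a median log2 change of 0.09. Gnai1, an inhibitory alpha subunit, rose to 9.08 ± 1.29 FPKM in Trim28 libraries, against 5.07 ± 0.246 FPKM in Bgal libraries (SD, n = 3 each, limma adjusted p = 0.00144). The main Gnas entry, for the stimulatory alpha subunit, rose to 105 ± 4.15 FPKM in Trim28 libraries, against 91.9 ± 2.28 FPKM in Bgal libraries, and the second entry rose 1.78-fold at a low level (limma adjusted p = 0.0111 and 0.018). Both entries carry 1 symbol, and how reads were split between them is not given. Gng5 fell to 54.1 ± 0.218 FPKM in Trim28 libraries, against 72.0 ± 2.63 FPKM in Bgal libraries (limma adjusted p = 0.000427).

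Of 12 tested Gq effectors 3 rose and 1 fell, with a median log2 change of 0.05. Itpr1, a calcium release channel opened by inositol trisphosphate, rose to 14.3 ± 0.0938 FPKM in Trim28 libraries, against 9.04 ± 0.315 FPKM in Bgal libraries (SD, n = 3 each, limma adjusted p = 0.000248). Plcb3, a phospholipase C activated by Gq, rose 1.36-fold and Itpr2 1.67-fold, while Prkce, a protein kinase C, fell to 6.20 ± 0.728 FPKM in Trim28 libraries, against 8.14 ± 1.12 FPKM in Bgal libraries (limma adjusted p = 0.0106, 0.0205 and 0.0455).

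Of the genes for making and breaking down catecholamines, 4 of 9 were tested, of which 1 rose and 2 fell, with a median log2 change of -0.26. Maoa, a mitochondrial enzyme that oxidises noradrenaline, rose to 304 ± 44.4 FPKM in Trim28 libraries, against 205 ± 5.07 FPKM in Bgal libraries (SD, n = 3 each, limma adjusted p = 0.00417). Dbh, which makes noradrenaline from dopamine, fell to 2.00 ± 0.973 FPKM in Trim28 libraries, against 4.72 ± 0.581 FPKM in Bgal libraries (limma adjusted p = 0.0093). Ddc, which makes dopamine, fell to 8.66 ± 0.609 FPKM in Trim28 libraries, against 11.8 ± 0.889 FPKM in Bgal libraries (limma adjusted p = 0.00577). Th, the gene of the first enzyme of the pathway, was at or below 0.0824 FPKM in every library.

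**Figure D5:**
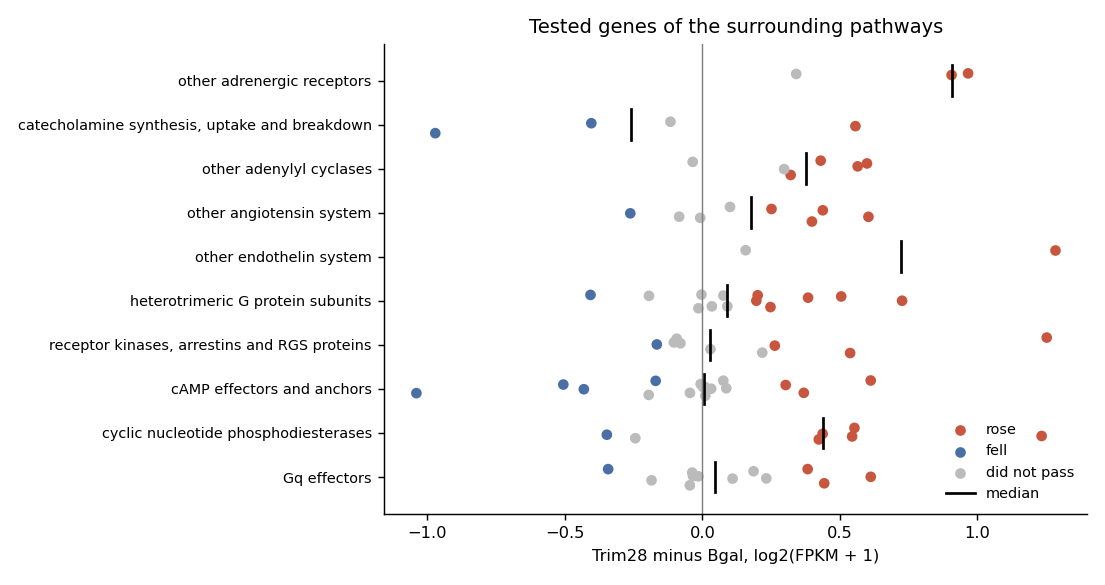
Log2 change, Trim28 minus Bgal on the log2(FPKM + 1) scale (horizontal axis), of each tested gene in the 10 lists of surrounding pathway genes, with red for genes that rose, blue for genes that fell and grey for genes that did not pass, and a black line at each list's median. The medians of the phosphodiesterases (0.44) and of the other adenylyl cyclases (0.38) lie above 0, and that of the cyclic AMP effectors is 0.01.

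For the member with the smallest p-value in each role, the genes with the most similar profile over the 6 libraries were listed by the root mean square distance of centred log2(FPKM + 1) values. Nearest to Adra1b were Stxbp6 at 0.03, Vamp1 at 0.08 and Fbxo32 at 0.09. Nearest to Adcy6 were Chst7 at 0.02, Ano6 at 0.02 and Sntb2 at 0.03. Epha1, Nfkbiz and Tcte1, each at 0.05, came nearest to Agtr1a, and RT1-T24-3, Npnt and Cox4i2, each at 0.08, to Ednrb. These profiles share the contrast between the groups, and the distances are a description.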

How the data were processed

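The deposited table holds FPKM values per library, per the file headers, and the authors used HISAT2 2.0.5 and DESeq2, per the submitters' processing notes. No counting tool, strand setting, genome build or annotation release was named in the sources used here. Gene lengths (in bases) are other values of the deposited table, used to recover reads: within each library FPKM times length came out as whole numbers of 1 unit, within 0.01, for 100% of values above 0. The table had 0 columns of other samples.

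The 14808 genes that reached 0.5 FPKM in 3 or more libraries were compared on log2(FPKM + 1). The test was limma 3.58.1 (R 4.3.3) with a trended prior variance and Benjamini-Hochberg adjustment over all of them, two-sided, at 0.05. Depths of 26146166 to 34593292 gene reads make 1 read on 1 kilobase worth 0.0281 to 0.0381 FPKM. Ratios were compared by exact permutation. The limma step was tested on simulated reads with 200 changed genes, far fewer than passed in the data. It recovered 90%, 74%, 94% and 100% of genes changed by a log2 of -2, -1, 1 and 2. Of its calls 6.77% were false. The simulated reads had the same spread beyond counting noise for every gene, so these rates need not hold for genes that spread more. Each library counted as 1 sample. Replicates of a group differed by more than counting noise (chi-square per degree of freedom 6.78 to 18.1), which does not show whether they came from separate cultures.

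The members and lists were chosen with earlier results of these data known. Named are all 9 members, up to 4 genes per pathway list by smallest p, Trim28, and 3 nearest profiles per role, with added genes marked as chosen after their values were seen, besides marker examples. Some genes and 1 ratio that the rule took are left out of the text. Ttn, Pecam1, Itgam and older symbols of the receptor kinases were not used.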

Additional observations from a re-analysis of the deposited data

How the results depend on the processing

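In 15 alternatives (2 pseudocounts, 2 filters, 3 scalings, limma-voom on recovered reads, the replicate block and 6 fits without 1 library each), Adra1a, Adra1b, Adcy6, Agtr1a and Ednrb passed in the same direction each time, and Adrb1 and Adcy5 never passed. Edn1 passed in limma-voom (adjusted p = 0.0496), with the replicate block (0.0257) and without Trim28 replicate 3 (0.0441). Ednra passed in limma-voom (0.0181) and without Bgal replicate 2 (0.0254), so that 2 members fell in each of these fits. The causes were not tested. The log2 change of Ednrb was 1.28 with a pseudocount of 0.1 FPKM and 1.41 in limma-voom. Without 1 library, 4783 to 5643 of all genes passed, 4 to 5 members rose and 1 to 2 fell, and 23 to 28 pathway genes rose and 8 to 10 fell.

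The titles number the replicates 1 to 3 in both groups but do not say what same-numbered libraries share, so the numbers were not taken as pairs. Deviations of same-numbered libraries from their group means had correlations of -0.02, 0.13 and 0.01. Libraries of different numbers had correlations of -0.09 to 0.08, so the 0.13 of replicate 2 was the highest. With the replicate block 5666 genes passed, against 6097 without it, and for Edn1 it moved the call as above.

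Of the 4 ratios reported, none changed sign in 8 alternatives. With a pseudocount of 1 FPKM the log2 difference of Ednra over Ednrb was -0.997. Without 1 library, the 4 differences ranged from 1.76 to 2.19 for Adra1a over Adra1b, 1.16 to 1.43 for Adrb1 over Adra1b, -0.49 to -0.34 for Adcy5 over Adcy6 and -1.98 to -1.27 for Ednra over Ednrb. Depth limits Ednrb most, with as few as 29 reads in a library. A planned edgeR fit on recovered reads was not run, since the deposited unit is FPKM.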
